A study of Mus musculus with 24 samples.

Results

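The enzymes described here form the methionine cycle and the first steps of transsulfuration in mouse liver. They were the 10 genes with the symbols Mat1a, Mat2a, Gnmt, Pemt, Ahcy, Bhmt, Bhmt2, Mtr, Cbs and Cth, out of 15160 genes in the count table, and all 10 were among the 13336 genes that passed a filter on low counts. They were chosen by name for their place in the pathway, although earlier results of these data were known at the time.

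In the methionine cycle, methionine is joined to ATP to give S-adenosylmethionine (SAM), the methyl donor of the cell, and methyltransferases turn SAM into S-adenosylhomocysteine (SAH), which is split into adenosine and homocysteine. Homocysteine is either methylated back to methionine, with the methyl group coming from betaine or from folate, or drawn into transsulfuration, where cystathionine is formed from it and cleaved to give cysteine. The liver carries out much of the body's methionine metabolism, and cysteine from transsulfuration is used there for glutathione and taurine.

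The samples were livers of 24 male mice, each sequenced as 1 QuantSeq library, which reads the 3′ ends of mRNAs and so gives about 1 read position per transcript whatever its length. There were 4 groups of 6 mice, formed by genotype and diet. WT mice (NRF2fl/fl) carried floxed Nfe2l2 alleles without Cre, and NRF2 KO mice carried the same floxed alleles together with 1 copy of an Albumin-cre transgene, so that both genotypes were homozygous for the floxed allele, and other liver cell types of the KO mice may keep the gene since the albumin promoter acts in hepatocytes. The Con diet held 0.86% methionine and the MR diet (methionine restriction) 0.17%, with no cysteine in either, so that cysteine had to come from methionine in all mice. Diets began at 8 weeks of age and are given as 8 weeks long, and the age on the labels is 5 months. In the 8-week experiment that the study describes, calorimetry and a recovery period followed before tissue was taken. Livers were taken after a fast of 4 h.

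The mice WT_CON_7604 and WT_MR_7612, which the study set aside as outliers of a principal component analysis, were left out of the values given first, which leaves 5 mice in each WT group and 6 in each NRF2 KO group. Total counts of these 22 libraries ran from 6197291 to 22068338. Nfe2l2 stood at 106 to 125 CPM (counts scaled to a common library total by TMM) in 4 of the 5 WT Con libraries, at 94.0 to 107 CPM in WT MR, at 228 to 339 CPM in NRF2 KO Con and at 202 to 249 CPM in NRF2 KO MR. The fifth WT Con library, labelled WT_CON_7607, had 324 CPM and so lay in the range of the KO mice. Since 3′ reads need not come from the deleted bases, these counts do not check the deletion, and the library labelled WT_CON_7607 was kept under its label with values given without it. Hepatocyte markers summed to 88816 to 122419 CPM in WT Con and 115745 to 136866 CPM in NRF2 KO Con. On MR they summed to 77309 to 97412 CPM in WT and 97782.5 to 122149 CPM in NRF2 KO, without overlap of the genotypes. A score of circadian clock genes was the mean log2 CPM of genes of the clock's negative arm less that of its positive arm. The score averaged 2.20 on Con and 3.73 on MR in WT, and 4.23 and 4.48 in NRF2 KO.

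With MR, Cth, which makes the enzyme that cleaves cystathionine to cysteine, was higher in both genotypes, at 1.87-fold the Con level in WT and 1.90-fold in NRF2 KO. Mat2a was higher and Bhmt lower in WT, and Cbs was lower in NRF2 KO. By edgeR's quasi-likelihood F-test, adjusted by Benjamini-Hochberg over all 13336 genes, 3 of the 10 enzymes passed an adjusted p of 0.05 in WT, 2 higher and 1 lower, against 13.8% of all genes (6.91% higher and 6.91% lower). In NRF2 KO, 2 of the 10 passed, 1 higher and 1 lower, against 12.6% of all genes (6.23% higher and 6.34% lower). The median log2 fold change of the 10 enzymes was 0.03 in WT and 0.07 in NRF2 KO, beside -0.0062 and -0.0042 over all genes, and 5 of the 10 lay above 0 in each genotype. Cth was the only one of the 10 whose MR mice did not overlap the Con mice, and this held in each genotype, where 9.32% of all genes did not overlap in WT and 5.45% in NRF2 KO.

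**Figure D1:**
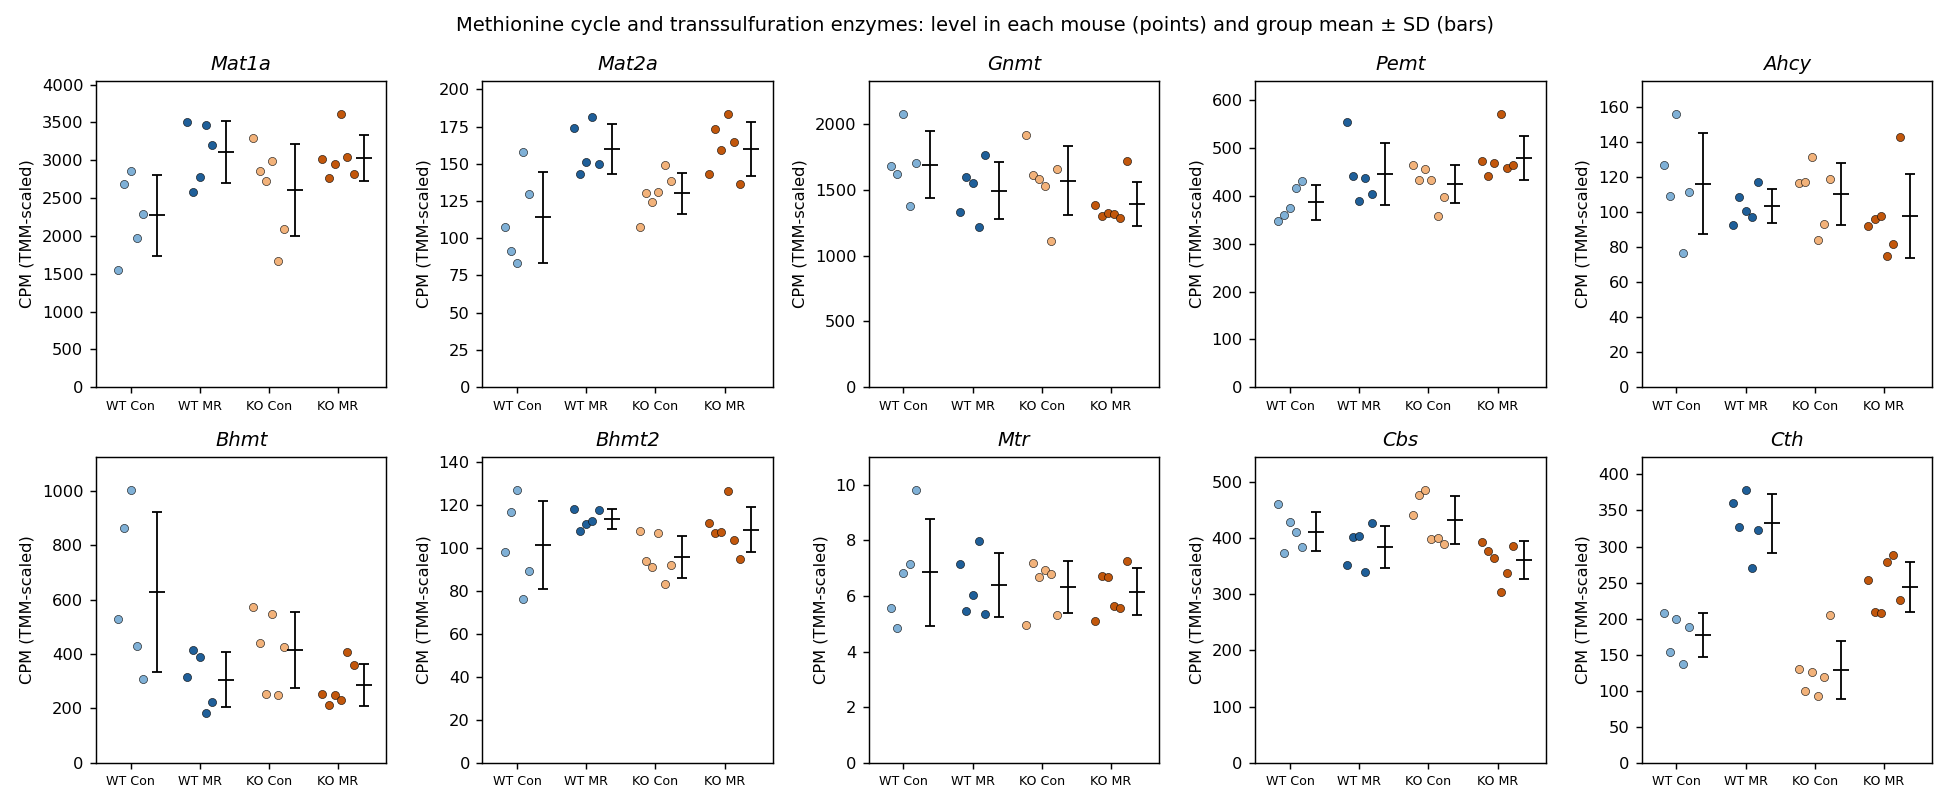
Level of each of the 10 enzymes (y axis, CPM scaled by TMM, from 0) in each of 22 mice (points) in the WT and NRF2 KO groups on either diet (x axis), with the group mean and SD as a bar beside the points. The Cth points of both MR groups lie above those of the Con groups of the same genotype, whereas for the other 9 genes the points of MR and Con overlap in each genotype.

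Cth and Cbs are the enzymes of transsulfuration. Cystathionine beta-synthase, from Cbs, condenses homocysteine with serine, and cystathionine gamma-lyase, from Cth, releases cysteine from the product. Cth (ENSMUSG00000028179) spans chromosome 3 from 157894248 to 157925077 on the minus strand (GRCm38). In WT Con its levels were 208, 153, 199, 137 and 189 CPM, the lowest being in the library labelled WT_CON_7607, and in WT MR they were 360.2, 328, 379, 271 and 322 CPM. Every WT MR mouse was thus above every WT Con mouse. The means were 177 ± 30.6 and 332 ± 41.5 CPM (SD, n = 5 each), with a log2 fold change of 0.91 ± 0.17 (SE) and an adjusted p of 0.00104 in edgeR's test. A two-sided exact permutation test over mice gave p = 0.0079, the smallest that 5 mice against 5 can give. This and the exact permutation p-values below are not adjusted for the number of tests. The left-out mice WT_CON_7604 and WT_MR_7612 had 213 and 249.7 CPM of Cth, and over all 24 mice the WT difference was 0.80 on the log2 scale, with no overlap of the 6 Con and 6 MR mice.

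In NRF2 KO Con, Cth ran from 92.6 through a median of 122 to 205 CPM, and in NRF2 KO MR from 208 through 239.7 to 289 CPM. The highest Con mouse, KO_CON_7623, lay just under the lowest MR mouse, and the other 5 Con mice were at or below 131 CPM. The log2 fold change was 0.92 ± 0.15 (SE), with an adjusted p of 5.02e-04 in edgeR's test and an exact permutation p of 0.0022, the smallest for 6 against 6. In the direct test of the difference between the genotypes in the MR response, the interaction was 0.02 on the log2 scale with a 95% interval from -0.45 to 0.48, an interval that leaves room for a difference in either direction. Without the library labelled WT_CON_7607 the WT log2 fold change of Cth was 0.83, and without KO_CON_7623 the KO one was 1.10. An unfinished transcript model, Gm43314, lies inside an intron of Cth on the same strand, touches no exon of it and had 25 to 158 counts per library. Whether reads in introns were counted for Cth is not given in the sources used here.

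Cbs (ENSMUSG00000024039, chromosome 17, minus strand, 31608894 to 31637238) had 389, 421 and 486 CPM as the lowest, median and highest values in NRF2 KO Con and 304, 371 and 393 CPM in NRF2 KO MR. All 6 MR mice were below the Con mean, although the ranges met between 389 and 393 CPM. The log2 fold change was -0.26 ± 0.083 (SE, n = 6 each), with an adjusted p of 0.0399 in edgeR's test and an exact permutation p of 0.0043. In WT Con the levels were 460.2, 372, 428, 410.1 and 384 CPM and in WT MR 352, 401, 404, 339 and 427 CPM. These WT groups overlapped widely, with a log2 fold change of -0.10 ± 0.091 (SE) and an adjusted p of 0.53 in edgeR's test. The interaction of genotype and diet was -0.17, with a 95% interval from -0.42 to 0.09, so a difference between the genotypes was not shown. The KO call was lost without any one of KO_CON_7617, KO_CON_7618, KO_CON_7620, KO_MR_7628, KO_MR_7629 or KO_MR_7631, with values from -0.29 to -0.22 over all 22 fits that omitted a mouse. It was also lost with the clock score as a covariate (-0.24) and under library-size scaling, where the KO median of all genes moved to 0.15 and Cbs to -0.11.

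Because Cbs feeds Cth, the log2 ratio of Cth to Cbs was followed in each mouse as a description without a test. Among the 5 WT mice of each diet it averaged -1.23 ± 0.22 (SD) on Con and -0.22 ± 0.18 (SD) on MR. Among the 6 NRF2 KO mice of each diet it averaged -1.79 ± 0.46 (SD) on Con and -0.57 ± 0.32 (SD) on MR. The ratio was therefore nearer to Cth in the MR mice of both genotypes, and in each diet its mean was lower in NRF2 KO than in WT. The highest Con ratio in NRF2 KO, -0.93 in KO_CON_7623, lay close to the lowest MR ratio, -0.85 in KO_MR_7627.

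**Figure D2:**
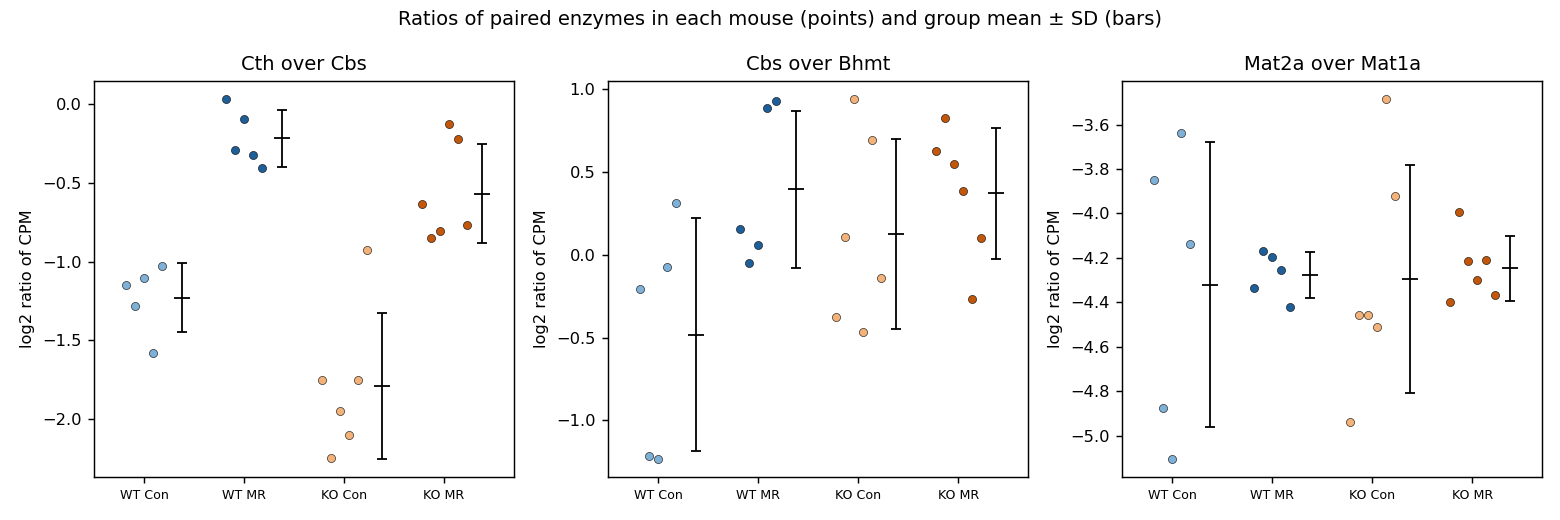
Log2 ratio of CPM (y axis) of Cth to Cbs, of Cbs to Bhmt and of Mat2a to Mat1a in each mouse (points) of the 4 groups (x axis), with the group mean and SD as a bar. Cth over Cbs is higher in both MR groups than in the Con group of the same genotype, and Mat2a over Mat1a has a mean between -4.32 and -4.25 in all 4 groups with less spread on MR.

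Betaine-homocysteine methyltransferase, from Bhmt, returns homocysteine to methionine with a methyl group of betaine, and Bhmt2 encodes a related enzyme that methylates homocysteine with S-methylmethionine. The genes lie one after the other on the minus strand of chromosome 13 in GRCm38, Bhmt (ENSMUSG00000074768) from 93616675 to 93637961 and Bhmt2 (ENSMUSG00000042118) from 93655720 to 93674302. Their proximal promoters are shown because the neighbours differed in their values with MR. Each line gives the 250 bases before the RefSeq start (GRCm38.p6, 5′ to 3′ on the minus strand), at chr13:93637759-93638008 for Bhmt and chr13:93674303-93674552 for Bhmt2, with the hexamer AGGTCA, which nuclear receptors recognize, in capitals on either strand.
Bhmt: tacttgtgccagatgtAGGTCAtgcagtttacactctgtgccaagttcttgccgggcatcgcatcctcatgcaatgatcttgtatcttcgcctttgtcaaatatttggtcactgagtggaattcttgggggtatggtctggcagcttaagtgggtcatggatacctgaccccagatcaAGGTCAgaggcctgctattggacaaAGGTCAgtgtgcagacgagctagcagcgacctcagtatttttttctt
Bhmt2: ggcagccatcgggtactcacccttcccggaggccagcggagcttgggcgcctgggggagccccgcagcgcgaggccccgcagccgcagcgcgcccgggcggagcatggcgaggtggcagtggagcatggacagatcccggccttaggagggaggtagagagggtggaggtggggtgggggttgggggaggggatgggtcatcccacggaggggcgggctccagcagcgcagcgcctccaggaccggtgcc
The Bhmt window was 48.0% G and C and held 3 such hexamers, beginning at -234, -72 and -47 from the start, and the Bhmt2 window was 74.0% G and C and held 0. The hexamer was searched for after the sequence had been seen, and 14.0% of the 32851 promoters of this length in RefSeq held at least 1 and 0.131% held 3 or more. A match in these letters is a description and not a binding site. The GENCODE model of Bhmt begins inside the window shown. The hexamers at -72 and -47 lie within that model, and only the one at -234 lies before its start.

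Promoters of 8 of the 10 enzymes, in 9 windows, were in the table used, and those of Mat1a and Cth were not. None of the 9 windows held TGATGNAAN, the letters of the C/EBP-ATF response element, or TGACNNNGC, the core of the antioxidant response element, on either strand. Of all 32851 promoters, 3.44% held the former and 10.2% the latter. Gnmt and Ahcy each held 1 AGGTCA hexamer.

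Bhmt showed the widest spread between mice of the 10 enzymes in WT Con, with a coefficient of variation of 46.9%. Its levels in WT Con were 531, 864, 1006, 431 and 309.8 CPM, and in WT MR 316, 415, 389, 183 and 224 CPM. All 5 WT MR mice were below the WT Con mean, while the lowest Con mouse, WT_CON_7608, lay within the MR range. Bhmt fell in WT from 628 ± 295 to 305 ± 101 CPM (SD, n = 5 each), with a log2 fold change of -1.04 ± 0.33 (SE), an adjusted p of 0.0400 in edgeR's test and an exact permutation p of 0.04.

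In NRF2 KO Con, Bhmt ran from 248 through a median of 435 to 572 CPM, and in NRF2 KO MR from 213 through 251 to 406 CPM. These groups overlapped, with a log2 fold change of -0.54 ± 0.30 (SE, n = 6 each), an adjusted p of 0.25 in edgeR's test and an exact permutation p of 0.082. The interaction was 0.50 with a 95% interval from -0.42 to 1.42, so a difference between the genotypes in the Bhmt response was not shown. The WT call was lost without any one of WT_CON_7603, WT_CON_7605, WT_MR_7609, WT_MR_7615 or WT_MR_7616, with values between -1.21 and -0.81 over all 22 such fits. It was also lost by limma on the deposited normalized values (-0.97) and in a fit of the WT groups alone (-1.05). With the clock score as a covariate the WT value was -0.58 and not called, and the part of the clock difference in this value was not tested.

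Bhmt2 differed little by contrast. Its levels in WT Con were 98.1, 117, 127, 76.1 and 89.3 CPM and in WT MR 118, 108, 111, 113 and 118 CPM, so that the MR mice all fell inside the Con range. The log2 fold change was 0.16 ± 0.11 (SE, n = 5 each) in WT, with an adjusted p of 0.35 in edgeR's test, and 0.18 ± 0.098 (SE, n = 6 each) in NRF2 KO, with an adjusted p of 0.25 in edgeR's test. In the last 500 bases of their transcripts, 32.2% of the 50-base windows of Bhmt and 25.1% of those of Bhmt2 also occurred in other transcripts, but none was shared between the neighbours.

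Methionine synthase, from Mtr (ENSMUSG00000021311, chromosome 13, minus strand, 12182712 to 12258113), uses the methyl group of 5-methyltetrahydrofolate. It had between 4.87 and 9.83 CPM, from 53 to 234 counts per library, and counting error weighs more in it than in the other 9 genes. The WT means were 6.85 ± 1.91 CPM on Con and 6.40 ± 1.14 CPM on MR (SD, n = 5 each), and those of NRF2 KO 6.32 ± 0.929 and 6.16 ± 0.840 CPM (SD, n = 6 each). Its MR to Con log2 fold change was -0.13 in WT, with a 95% interval from -0.47 to 0.21, and -0.042 in NRF2 KO, with an interval from -0.35 to 0.27, and the sign of both turned in fits without 1 mouse (0.049 in WT without WT_CON_7608 and 0.0071 in KO without KO_MR_7625).

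At the branch point of homocysteine, where Cbs and Bhmt draw on the same substrate, the log2 ratio of Cbs to Bhmt averaged -0.48 ± 0.70 on Con and 0.39 ± 0.47 on MR among WT mice (SD, n = 5 each). Among NRF2 KO mice it averaged 0.13 ± 0.57 on Con and 0.37 ± 0.40 on MR (SD, n = 6 each). WT Con thus had the lowest mean, and its highest mouse, WT_CON_7608 at 0.31, lay inside the ranges of the other 3 groups.

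SAM is made by methionine adenosyltransferases, of which Mat1a encodes the catalytic subunit typical of adult hepatocytes and Mat2a that of most other tissues and of growing liver cells. Mat2a (ENSMUSG00000053907) spans chromosome 6 from 72432799 to 72439558 on the minus strand. In WT Con it stood at 108, 91.2, 83.2, 158 and 129.8 CPM and in WT MR at 174, 143, 151, 182 and 149.6 CPM. The highest Con value was that of the library labelled WT_CON_7607, and the other 4 Con mice were below every MR mouse. Mat2a rose in WT from 114 ± 30.5 to 159.9 ± 16.7 CPM (SD, n = 5 each), with a log2 fold change of 0.49 ± 0.13 (SE), an adjusted p of 0.0160 in edgeR's test and an exact permutation p of 0.032.

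Without the library labelled WT_CON_7607 the WT difference in Mat2a was 0.64 and called, and the call was lost without WT_CON_7603, with the clock score as a covariate (0.30) and in a fit of the WT groups alone (0.48). In NRF2 KO, Mat2a ran from 107 through a median of 131 to 149 CPM on Con and from 136 through 162 to 184 CPM on MR. All 6 MR mice were above the Con mean and the groups overlapped, with a log2 fold change of 0.30 ± 0.12 (SE, n = 6 each), an adjusted p of 0.10 in edgeR's test and an exact permutation p of 0.013. This value was called with library size only (0.46), with quality weights over all 24 mice (0.32) and in a fit of the KO groups alone (0.30). The interaction was -0.19, with a 95% interval from -0.56 to 0.18. The antisense gene Particl overlaps an exon of Mat2a and had 14 to 68 counts per library, and 11.0% of the 50-base windows at the 3′ end of Mat2a also occurred in Gm9523.

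Mat1a (ENSMUSG00000037798) lies on the plus strand of chromosome 14, from 41105035 to 41124412. Its levels in WT Con were 1552, 2681, 2864, 1969 and 2285 CPM and in WT MR 3506, 2582, 2774, 3465 and 3208 CPM. All 5 MR mice were above the Con mean, and WT_MR_7611 and WT_MR_7613 lay below the highest Con mouse. The log2 fold change was 0.45 ± 0.16 (SE, n = 5 each), with an adjusted p of 0.063 in edgeR's test and an exact permutation p of 0.04, so that the value missed the threshold over all genes. It passed over all 24 mice, at 0.44, and by DESeq2, at 0.46. Over the 10 alternative ways of processing, the WT value ran from 0.13 to 0.56. In 6 of these 10 it was not called, among them the fit with the clock score as a covariate. In NRF2 KO the log2 fold change was 0.22 ± 0.15 (SE, n = 6 each), with an adjusted p of 0.36 in edgeR's test, from a mean of 2607 ± 608 CPM on Con to 3035 ± 305 CPM on MR (SD, n = 6 each).

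The log2 ratio of Mat2a to Mat1a averaged -4.32 on Con and -4.28 on MR in WT, and -4.30 on Con and -4.25 on MR in NRF2 KO. Its SD on Con was 0.64 in WT and 0.51 in NRF2 KO, against 0.10 and 0.15 on MR. The means of the 4 groups thus lay close together, and the Con mice were spread more widely than the MR mice in both genotypes. The extremes on Con were -5.10 in WT_CON_7605 and -3.49 in KO_CON_7622.

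Gnmt and Pemt encode methyltransferases of the liver that take methyl groups from SAM. Glycine N-methyltransferase, from Gnmt, disposes of SAM in excess, and the enzyme from Pemt makes phosphatidylcholine from phosphatidylethanolamine. Gnmt (ENSMUSG00000002769, chromosome 17, minus strand, 46725664 to 46729168) had means of 1691 ± 253 CPM in WT Con and 1493 ± 218 CPM in WT MR (SD, n = 5 each), with a log2 fold change of -0.18 ± 0.13 (SE) and an adjusted p of 0.39 in edgeR's test. In NRF2 KO its means were 1569 ± 261 CPM on Con and 1390 ± 166 CPM on MR (SD, n = 6 each), with a log2 fold change of -0.17 ± 0.12 (SE) and an adjusted p of 0.36 in edgeR's test. In NRF2 KO MR, 5 of the 6 mice lay between 1285 and 1384 CPM and KO_MR_7632 at 1722 CPM.

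Pemt (ENSMUSG00000000301, chromosome 11, minus strand, 59970614 to 60046489) had 347, 361, 375, 417 and 432 CPM in WT Con and 555, 441, 389.7, 438 and 405 CPM in WT MR. All 5 MR mice were above the Con mean, and the groups overlapped. The log2 fold change was 0.21 ± 0.099 (SE, n = 5 each), with an adjusted p of 0.17 in edgeR's test and an exact permutation p of 0.087. In NRF2 KO it was 0.18 ± 0.090 (SE, n = 6 each), with an adjusted p of 0.20 in edgeR's test and an exact permutation p of 0.019, from 424 ± 39.7 to 480.2 ± 46.2 CPM (SD). Pemt was above the Con mean in 5 of 5 and 6 of 6 MR mice.

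Ahcy (ENSMUSG00000027597, chromosome 2, minus strand, 155059310 to 155074497) encodes S-adenosylhomocysteine hydrolase, which splits SAH. Its means were 116 ± 28.9 CPM in WT Con and 103 ± 9.71 CPM in WT MR (SD, n = 5 each), with a log2 fold change of -0.17 ± 0.17 (SE) and an adjusted p of 0.55 in edgeR's test. In NRF2 KO they were 110.4 ± 17.8 CPM on Con and 97.8 ± 23.9 CPM on MR (SD, n = 6 each), with a log2 fold change of -0.18 ± 0.15 (SE) and an adjusted p of 0.50 in edgeR's test. Of the 50-base windows at its 3′ end, 37.4% also occurred in the copies Gm4737, Gm5638 or Gm9826. Gm4737 had 7 to 41 counts per library, and the level of Ahcy is uncertain to the extent that reads were divided among these copies.

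**Figure D3:**
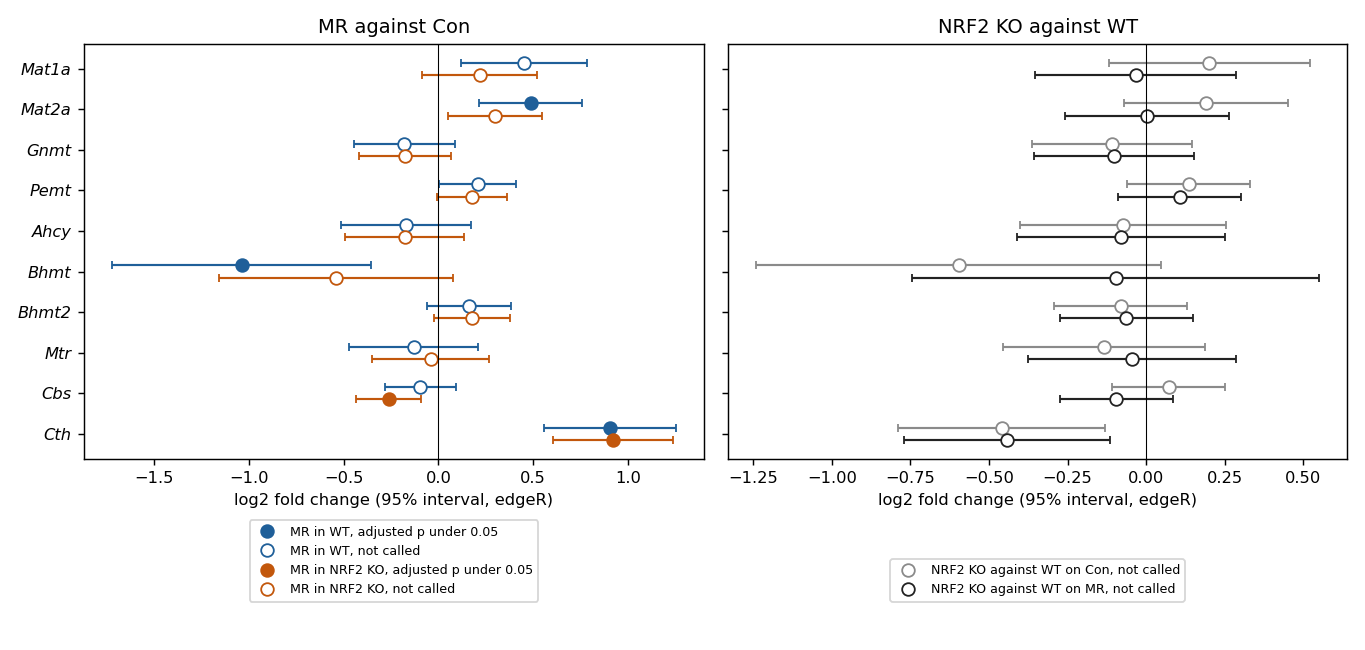
Log2 fold change with 95% interval (x axis, edgeR) of each of the 10 enzymes (y axis) for MR against Con in WT and in NRF2 KO (left) and for NRF2 KO against WT on Con and on MR (right), with filled points at an adjusted p under 0.05. Filled points are Mat2a, Bhmt and Cth in WT and Cbs and Cth in NRF2 KO, and no point is filled on the right, where the intervals of Cth lie below 0 on both diets.

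Averaged over both genotypes in the same model, a contrast added after the data had been seen, MR differed from Con at an adjusted p under 0.05 in edgeR's test for 6 of the 10 enzymes, against 27.4% of all genes. Cth (0.91), Mat2a (0.39), Mat1a (0.34) and Pemt (0.19) were higher and Bhmt (-0.79) and Cbs (-0.18) were lower on the log2 scale. Of the 22 fits that omitted a mouse, the Cbs call held in 14 and the Pemt call in 16, and 4 to 6 enzymes were called. The remaining 4 ran from -0.18 for Gnmt to 0.17 for Bhmt2 and were not called. With the clock score as a covariate 1 of the 10 was called, Cth at 0.99. The clock score itself differed between WT Con and WT MR, and a clock difference and the diet cannot be told apart in WT.

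NRF2 KO and WT mice were then compared on the same diet. Cth was the enzyme with the lowest p in each comparison, lower in NRF2 KO on Con (129 ± 40.0 CPM, SD, n = 6, against 177 ± 30.6, n = 5) and on MR (244 ± 35.0, n = 6, against 332 ± 41.5, n = 5). Its log2 difference was -0.46 ± 0.16 (SE) on Con, with an adjusted p of 0.15 in edgeR's test and an exact permutation p of 0.043, and -0.44 ± 0.16 (SE) on MR, with an adjusted p of 0.17 in edgeR's test and an exact permutation p of 0.013. On MR, all 6 KO mice were below the WT mean. On Con, 5 of 6 were, and without the remaining mouse, KO_CON_7623, the difference was -0.64 and called. In 21 of the 22 fits that omitted a mouse, and in all 10 alternative ways of processing, the Con difference was not called. Under these alternatives it ran from -0.53 to -0.27.

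By edgeR's test 0 of the 10 enzymes passed the adjusted threshold on Con, against 2.07% of all genes, and 0 on MR, against 1.93%. At an unadjusted p under 0.05 there was 1 on each diet, Cth, and by DESeq2 and by limma 0 passed the adjusted threshold on either diet. When the library labelled WT_CON_7607 was omitted, 3 of the 10 had an unadjusted p under 0.05 on Con in edgeR's test, and 0 passed the adjusted threshold. Over all 22 mice, none of the 10 separated the genotypes without overlap, where 1.83% of all genes did so on Con and 4.6% on MR. Averaged over both diets, again a contrast added after the data had been seen, Cth was lower in NRF2 KO by edgeR's test (-0.45 ± 0.11, SE, adjusted p = 0.0180), the only one called of the 10, against 5.45% of all genes. This call held in all 22 fits that omitted a mouse and was lost with the clock score as a covariate (-0.32).

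By size alone, Bhmt had the largest difference between the genotypes on Con, at -0.60 with a 95% interval from -1.24 to 0.05, and on MR it was at -0.097 with an interval from -0.74 to 0.55. The difference on Con was -0.70 when the library labelled WT_CON_7607 was omitted, and 0.018 with the clock score as a covariate. The clock score was at most 3.15 in any WT Con mouse and at least 3.99 in every NRF2 KO Con mouse, without overlap. The gap between these means was wider than the one that MR had in WT. On MR the score was at most 4.27 in any WT mouse and at least 4.37 in every NRF2 KO mouse, again without overlap. The clock and the genotype therefore cannot be told apart on either diet. With the clock score as a covariate, 0 of the 10 enzymes had an unadjusted p under 0.05 between the genotypes on MR in edgeR's test. The other 8 enzymes had log2 differences between -0.13 and 0.20 on Con and between -0.10 and 0.11 on MR. For the interaction of genotype and diet, 0 of the 10 were called by edgeR, against 0.045% of all genes, with 0 at an unadjusted p under 0.05 and 0 by DESeq2 and by limma, and the values ran from -0.23 for Mat1a to 0.50 for Bhmt. When the library labelled WT_CON_7607 was omitted, 1 of the 10 interactions had an unadjusted p under 0.05 in edgeR's test, and 0 were called.

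Within groups, a few pairs of the 10 enzymes varied together from mouse to mouse, and 21 of the 45 pairs had a negative r. After the group means were removed, the log2 CPM of Gnmt and Ahcy had a Pearson r of 0.74 over the 22 mice and that of Mat1a and Bhmt2 one of 0.67. Mat2a went the other way, with r of -0.74 against Gnmt, -0.72 against Ahcy, -0.67 against Bhmt and -0.61 against Bhmt2. Cth had no r beyond -0.37 and 0.29 with the other 9. These values share the library and its depth, and the r of Mat2a and Gnmt with log2 depth were -0.43 and 0.54 over the same mice, so they are given as a description.

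**Figure D4:**
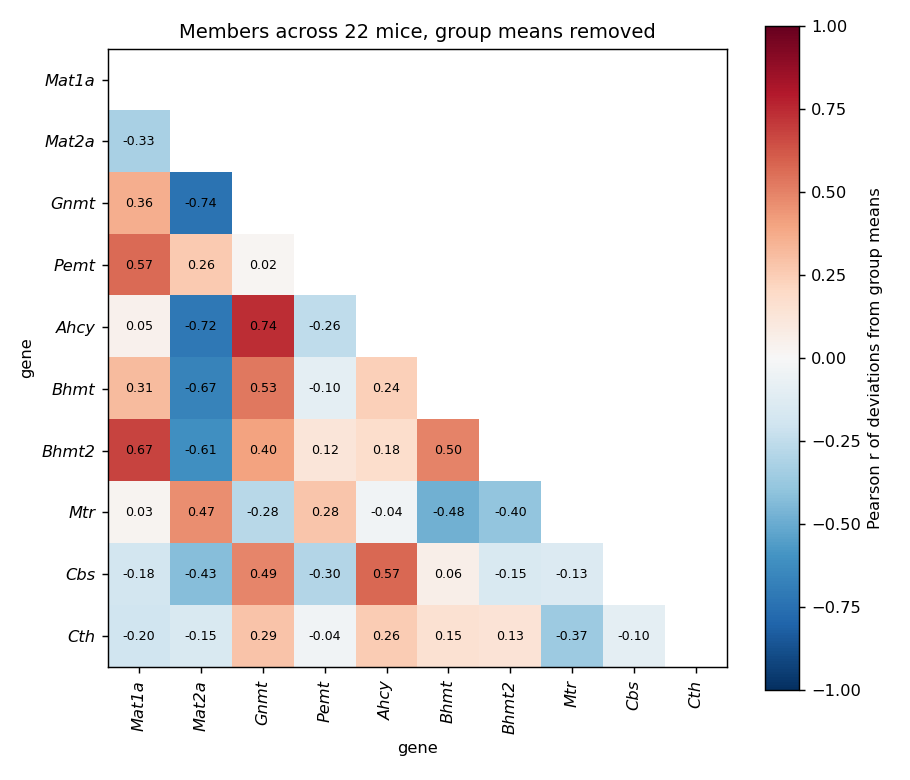
Pearson r (colour and number) between each pair of the 10 enzymes (both axes, genes) over 22 mice after removal of the 4 group means from log2 CPM. Mat2a has negative values against Gnmt, Ahcy, Bhmt and Bhmt2, from -0.74 to -0.61, and Cth has weak values throughout.

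Among 11164 genes searched, those whose log2 CPM was most like that of Cth over the 22 mice were Pir (r of 0.92), Mafg (0.91) and Gch1 (0.90). Those most like Bhmt were Trim12a (0.86), Slc22a15 (0.85) and Aagab (0.85). These r include the differences between the groups and are descriptions over 22 mice.

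Other genes of one-carbon and sulfur metabolism were read from 5 lists. Of their 50 tested genes, 11 were higher and 4 lower with MR in WT, and 7 were higher and 6 lower in NRF2 KO, by edgeR's test, beside 13.8% of all genes called in WT and 12.6% in NRF2 KO, shares against which the counts of each list are to be read. The median log2 fold change was 0.12 in WT and 0.05 in NRF2 KO. One list held 7 genes put together for the supply or breakdown of betaine, the substrate of Bhmt. Of these, 3 were higher and 2 lower in WT and 2 higher and 2 lower in NRF2 KO. The transporter gene Slc6a13 rose from 136 ± 13.0 to 242 ± 17.2 CPM in WT (SD, n = 5 each; log2 fold change 0.83, adjusted p = 4.90e-06 in edgeR's test) and by 0.62 in NRF2 KO, without overlap of the groups in either. Uptake of betaine was not measured, and the rise of Slc6a13 is not read as such. The betaine transporter gene Slc6a12 rose by 0.39 and 0.44 in the respective genotypes, and Chdh, choline dehydrogenase, by 0.39 in WT. Aldh7a1, which oxidizes betaine aldehyde, fell in both, with log2 fold changes of -0.48 and -0.54. The choline transporter gene Slc44a1 fell by 0.35 in WT, and Dmgdh, the dehydrogenase of the dimethylglycine that Bhmt leaves, fell by 0.43 in NRF2 KO. In the other genotype Slc44a1 (-0.23), Dmgdh (-0.20) and Chdh (0.14) had the same sign and were not called. Their interactions of genotype and diet had adjusted p of 0.91, 0.82 and 0.59 in edgeR's test. A difference between the genotypes in the MR response was thus not shown. On MR itself, Chdh was lower in NRF2 KO than in WT (-0.38, adjusted p = 0.00424 in edgeR's test). Slc6a12, Chdh, Slc44a1 and Dmgdh were named after their values were seen.

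Of 8 partners of the cycle, Mtrr, the reductase that keeps methionine synthase active, rose by 0.49 in WT. Adk, adenosine kinase, which clears the adenosine released from SAH, fell by 0.29 in NRF2 KO, and the others were not called with MR. In the other genotype Mtrr was at 0.14 and Adk at -0.18, neither called. On Con, Mtrr was higher in NRF2 KO than in WT (0.56, adjusted p = 0.0155 in edgeR's test). The interactions were -0.36 for Mtrr and -0.10 for Adk (adjusted p of 0.67 and 0.90 in edgeR's test). A difference between the genotypes in the MR response was thus not shown for either. Of 12 other SAM-dependent methyltransferases, 1 was higher and 2 were lower with MR in WT. Nnmt, which methylates nicotinamide, fell in WT (log2 fold change -1.75, adjusted p = 0.0211 in edgeR's test) and in NRF2 KO (-1.65, adjusted p = 0.0167 in edgeR's test). As3mt, an arsenite methyltransferase, rose by 0.49 in WT and 0.37 in NRF2 KO. Gamt, which makes creatine and was named after its value was seen, fell by 0.39 in WT.

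Of 12 genes of methionine salvage and polyamine synthesis, 2 were higher in WT and 0 were called in NRF2 KO by edgeR's test, where 1 had an unadjusted p under 0.05 and 0 were called by DESeq2 and 0 by limma. These were Amd1, the SAM decarboxylase (0.72), and Odc1, ornithine decarboxylase (0.56), both at the head of polyamine synthesis. Their interactions of genotype and diet were -0.73 (adjusted p = 0.29 in edgeR's test) and -0.40 (adjusted p = 0.70), so a difference between the genotypes in the MR response was not shown for either. On MR, Amd1 was lower in NRF2 KO than in WT (-0.79, adjusted p = 0.00122 in edgeR's test), whereas on Con the difference was -0.064 (adjusted p = 0.89 in edgeR's test). Of 11 transcription factors and ATF4 read-outs, 4 were higher in WT, and 4 were higher and 1 lower in NRF2 KO. Asns, asparagine synthetase, rose by 4.09 in WT and 3.86 in NRF2 KO on the log2 scale, and Chac1, which degrades glutathione, rose by 1.29 and 2.16. The others called, named after their values were seen, were Trib3 (0.85 in WT and 1.23 in NRF2 KO), Klf15 (0.50 in WT), Atf4 (0.34 in NRF2 KO) and Cebpa, which fell by 0.47 in NRF2 KO. Over the 5 lists, 3 of the 50 genes were higher and 1 lower in NRF2 KO than in WT on Con, against 2.07% of all genes. On MR, 0 were higher and 4 lower, against 1.93%. For the interaction of genotype and diet 0 of the 50 were called by edgeR's test, against 0.045% of all genes.

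Markers of other liver cell types moved with diet as well. The 5 bile duct markers summed to 49.0 to 72.6 CPM in WT Con and to 20.9 to 28.3 CPM in WT MR, with 4 of 5 lower by edgeR's test, and to 31.7 to 53.1 CPM in NRF2 KO Con and 20.6 to 29.0 CPM in NRF2 KO MR, with 1 of 5 lower. Most of these sums came from Sox9 and Spp1 (means of 19.5 and 14.6 CPM). Krt7, Krt19 and Epcam were low, with means of 0.77, 0.96 and 1.34 CPM. The 5 stellate cell markers summed to 481 to 730 CPM in WT Con and 409 to 516 CPM in WT MR, with 4 of 5 lower, and to 546 to 612 CPM in NRF2 KO Con and 471 to 583 CPM in NRF2 KO MR, with 2 of 5 lower. Of the 7 hepatocyte markers, 1 was lower in WT and 2 were lower in NRF2 KO. Beside these counts of markers, 6.91% of all genes were called lower with MR in WT and 6.34% in NRF2 KO. Between the genotypes, averaged over both diets, all 7 hepatocyte markers had log2 differences above 0 in NRF2 KO against WT. By edgeR's test 2 of these 7 were called higher, against 5.45% of all genes called in either direction. Fewer cells of a type and less RNA per cell cannot be told apart in whole liver, and the part of these markers in the values of the 10 enzymes was not tested.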

How the data were processed

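Read counts per gene of 24 QuantSeq 3′ libraries were used in the form the authors deposited. Mapping and counting had been done with the pipeline of the kit's maker, and the aligner, annotation and use of strand are not given in the sources used here. The labels' processing notes name GRCm38 and mm10, R 3.4.3 and DESeq2 1.18.1. The authors also deposited a normalized signal, the counts divided by a DESeq2 size factor per mouse, which served as an alternative with a pseudocount of 1. The main tests used edgeR 4.0.16 under R 4.3.3 (TMM, filter by expression, robust quasi-likelihood F-tests, 1 model of the 4 group means, adjusted p under 0.05), with 1824 of 15160 genes left out by the filter, and log2 CPM used a prior count of 2. limma 3.58.1 and DESeq2 1.42.0 served as alternatives. Values over mice were compared by two-sided exact permutation tests, whose p-values have a smallest value of 0.0079 for 5 against 5 and 0.0022 for 6 against 5 or 6. These p-values are unadjusted, with 1 test for each of the 10 enzymes in each of the 4 pairwise comparisons of groups. Scripts were tested on simulated data. Depth was 6197291 to 22068338 counts, so a member other than Mtr had at least 645 counts in every library. No pair of libraries in a group was within counting noise (lowest chi-square per degree of freedom 8.32). Positions came from GENCODE M21 and promoters from RefSeq GRCm38.p6. The enzymes, the gene lists and the comparisons were chosen with earlier results of these data known. All 10 enzymes were named, as were, from each other list, the 2 called genes with the largest log2 fold change in each MR comparison at 1 CPM or more, and the 3 genes most like each of the 2 called enzymes with the largest change in WT. Other marker lists (Kupffer, endothelial, neutrophil, T and NK, B and red blood cells) had at most 1 called gene in either MR comparison, a pancreatic acinar list had 0 of 4 genes tested, and Clec4f, Cd79a and Cela2a were not analysed here. Of the genes named by the rule on the other lists, 1 is not reported here.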

Additional observations from a re-analysis of the deposited data

Results flagged for a closer look

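In 5 of the 40 sets of one enzyme in one group, the highest mouse stood apart from the others by Dixon's criterion at the 95% level, where chance gives about 2. Mat1a was at 3614 CPM in KO_MR_7629, against 3049 CPM in the next mouse of NRF2 KO MR, and Pemt was at 572 CPM in the same mouse, against 473 CPM in the next. Gnmt was at 1722 CPM in KO_MR_7632, against 1384 CPM, and Ahcy was at 143 CPM in that mouse, against 98.1 CPM. Cth was at 205 CPM in KO_CON_7623, against 131 CPM in the next mouse of NRF2 KO Con.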

How the results depend on the processing

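Cth kept its call with MR under all 10 alternatives and all 22 fits without 1 mouse, at 0.80 to 1.05 under the alternatives in WT and 0.92 to 1.08 in NRF2 KO. The number of enzymes called in WT was 5 with library size only, 1 with the clock score as a covariate and 1 in a fit of the 2 groups alone, and 1 to 4 without 1 mouse (1 without WT_CON_7603). In NRF2 KO it was 4 with library size only, 3 with quality weights, 3 in a fit of the 2 groups alone and 1 with the clock score, and 1 to 2 without 1 mouse. For the genotypes on Con it was 0 to 1 without 1 mouse, and on MR 1 in a fit of the 2 groups alone. With the clock score, 1 was called for MR averaged over genotypes and 0 for genotype averaged over diets. Signs turned with the clock score for Pemt (-0.060) and Cbs (0.024) with MR in WT, for Bhmt between the genotypes on Con (0.018), on MR (0.14) and averaged (0.078), and for the Cth interaction (-0.10). Of all 10 enzymes, 6 kept their sign with the clock score between the genotypes on Con, 7 on MR, 5 averaged and 5 in the interaction, where 8 kept it with library size only. With library size only, which moved the median of all genes with MR to 0.087 in WT and 0.15 in NRF2 KO, Mtr turned to 0.11 in NRF2 KO and 0.031 averaged over genotypes. Without 1 mouse, Mtr with MR ran from -0.23 to 0.049 in WT, -0.10 to 0.0071 in NRF2 KO and -0.13 to 0.0034 averaged, Bhmt between the genotypes on MR from -0.24 to 0.034, and the Cth interaction from -0.062 to 0.20. The cause was not tested. No paired analysis was possible because each mouse has a number of its own and the groups share none. Depth limits Mtr most.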
